A study of Mus musculus with 8 samples.

Results

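Metallothioneins, ferritin subunits, transferrin and the transferrin receptor were examined in the aging mouse brain as 7 genes, Mt1, Mt2, Mt3, Fth1, Ftl1, Trf and Tfrc. They were taken by symbol, through their Ensembl identifiers, from a table of 22430 genes, and all 7 had a row. The table holds raw read counts from nanopore sequencing. The study's methods describe direct RNA sequencing, in which RNA molecules themselves pass the pore without amplification, whereas the sample labels name a poly(A) kit for cDNA libraries, and which of them made these libraries cannot be told from the counts. The RNA came from brain hemispheres of male mice of the inbred strain C57Bl/6JRj, and each mouse gave 1 library. A group of 4 young adult mice (6m, 6 months old) was compared with 4 aged mice (24m, 24 months old), and the labels name no treatment or altered allele in either. The question was how the RNA of these genes differs between the ages.

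Metallothioneins are small, cysteine-rich proteins that bind zinc and copper. Mt1 and Mt2 are made in most tissues, in the brain mostly in astrocytes, and are induced by metals through the zinc-sensing factor Mtf1 and by glucocorticoids, whereas Mt3 is the form most typical of the brain. Ferritin stores iron in a shell of heavy (Fth1) and light (Ftl1) chains, of which the heavy chain oxidizes iron on entry. Transferrin (Trf), in the brain a product of oligodendrocytes and the choroid plexus, carries iron, and its receptor (Tfrc) brings it into cells. Iron regulatory proteins bind hairpins called iron-responsive elements: in the 5′ UTR of ferritin mRNAs they block translation, and in the 3′ UTR of the receptor mRNA they protect it from decay when iron is scarce.

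The 3 metallothionein genes lie together on chromosome 8 of GRCm39, on the plus strand, within a cluster of 43.1 kb. Mt3 lies at chr8:94879220-94881088, Mt2 at chr8:94898819-94900207 and Mt1 at chr8:94905710-94906955. Their coding sequences hold 61 codons in Mt1, 61 in Mt2 and 68 in Mt3, and each has 20 codons for cysteine, that is 32.8% of the codons in Mt1 and Mt2 and 29.4% in Mt3. The coding sequences of Mt1 and Mt2 were identical at 79.6% of aligned bases, those of Mt1 and Mt3 at 73.7% and those of Mt2 and Mt3 at 75.3%. No near-identical copy of Mt1 or Mt3 was found in the annotation. Fth1 lies at chr19:9957911-9962462, plus strand, and Ftl1 at chr7:45107367-45109308, minus strand, and their coding sequences were identical at 65.0% of aligned bases. Trf lies at chr9:103081200-103107814 on the minus strand and Tfrc at chr16:32427556-32451612 on the plus strand.

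The core of the metal response element, the site of Mtf1, was searched as TGCACNC and TGCGCNC on both strands of RefSeq promoter windows of 300 bases, 250 before and 50 after a start site, and 6 of the 7 genes had a window. RefSeq's table is on GRCm38.p6, and the positions here come from matching each window to GRCm39. The Mt1 window held 3 cores, the Mt2 window 4, the Mt3 window 1 and 1 of the 2 Tfrc windows 2 that overlap each other, and none was found in the windows of Fth1 and Ftl1. Of 32851 promoter windows, 25.7% held at least 1 core, 1.97% at least 3 and 0.52% at least 4. For Mt1 and Mt2, the most densely packed, 100 bases of each window follow, 5′ to 3′ on the plus strand, from chr8:94905644-94905743 for Mt1 and chr8:94899173-94899272 for Mt2. Capitals mark the cores within these bases, 3 of the 3 in Mt1 and 2 of the 4 in Mt2, where the marked cores read in reverse complement.
Mt1: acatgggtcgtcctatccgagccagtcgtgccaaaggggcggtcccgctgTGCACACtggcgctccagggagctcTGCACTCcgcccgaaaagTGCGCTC
Mt2: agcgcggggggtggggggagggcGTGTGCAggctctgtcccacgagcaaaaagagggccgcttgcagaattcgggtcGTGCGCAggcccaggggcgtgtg

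Iron-responsive elements were searched in the GENCODE transcripts as the loop CAGTGN closed by 5 base pairs with an unpaired C before them, allowing G-T pairs. Fth1 and Ftl1 each held 1 in the 5′ UTR, Tfrc held 4 in the 3′ UTR, and the transcripts of Mt1, Mt2, Mt3 and Trf held none. Of 21571 protein-coding transcripts, 24 (0.11%) held such a match in the 5′ UTR and 124 (0.57%) in the 3′ UTR. The 27 bases around each loop are shown because they are what the ferritin and receptor messages have in common, with the loop in capitals. They lie at chr19:9960097-9960123 for Fth1, at chr7:45109204-45109230 on the minus strand for Ftl1, and for Tfrc at chr16:32450038-32450064, chr16:32450417-32450443, chr16:32450482-32450508 and chr16:32450529-32450555.
Fth1: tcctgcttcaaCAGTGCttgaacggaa
Ftl1: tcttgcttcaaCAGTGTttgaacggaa
Tfrc site 1: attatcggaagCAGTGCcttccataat
Tfrc site 2: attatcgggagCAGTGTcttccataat
Tfrc site 3: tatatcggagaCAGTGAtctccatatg
Tfrc site 4: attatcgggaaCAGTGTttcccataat

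Counts on genes ranged from 573152 to 843706 in the 6m libraries and from 660398 to 1255424 in the 24m libraries. Levels are given in CPM, counts per 1000000 of a library size scaled with TMM factors, which assume that most genes do not change. edgeR's quasi-likelihood test compared 24m with 6m for all genes whose counts averaged more than 5, and a gene was called when its adjusted p (Benjamini-Hochberg) was 0.05 or less and its log2FC was 0.58 or more in size. Of 9375 tested genes, 1359 (14.5%) were called, 968 (10.3%) of them higher and 391 (4.17%) lower at 24m. Markers of neurons, astrocytes, oligodendrocytes and microglia were all detected, the lowest being Cx3cr1 with 5 counts in all. The library of 24m replicate 1 stood apart from the other 24m libraries on the second principal component, so some values without it are given below.

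Of the 7 genes, 6 were tested, and by edgeR none was called in either direction, against 14.5% of all tested genes. DESeq2, on raw or on quantile-normalized counts, and limma-voom called none of them either, and 3 of the 6, the metallothioneins, had an unadjusted p under 0.05. The share of all tested genes under that limit is not reported here, so this count and those of the lists below have no background. On adjusted p alone, without the fold threshold, 2 of the 6 passed, Mt1 and Mt3, beside 2038 of all tested genes (21.7%). The same 2 were the members whose 24m libraries all lay below the 6m libraries, and across all tested genes the libraries of the ages did not overlap in 1979 (21.1%). All 6 log2FC were below 0, with a median of -0.19, while the median of all tested genes was -0.0034. All 6 are abundant RNAs, with mean counts over 500, and the 287 tested genes of that abundance had a median log2FC of -0.23. Of these 287, 244 had a log2FC below 0, while 4657 of the 9375 tested genes had one above 0. Of those 287 genes, 12 (4.18%) were called and 147 (51.2%) passed on adjusted p alone, 131 of them lower at 24m. The members' median was thus near that of abundant RNAs under this scaling. All 7 together took 1.80% ± 0.10 (SD, n = 4) of the counts at 6m and 1.64% ± 0.11 (SD, n = 4) at 24m.

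**Figure D1:**
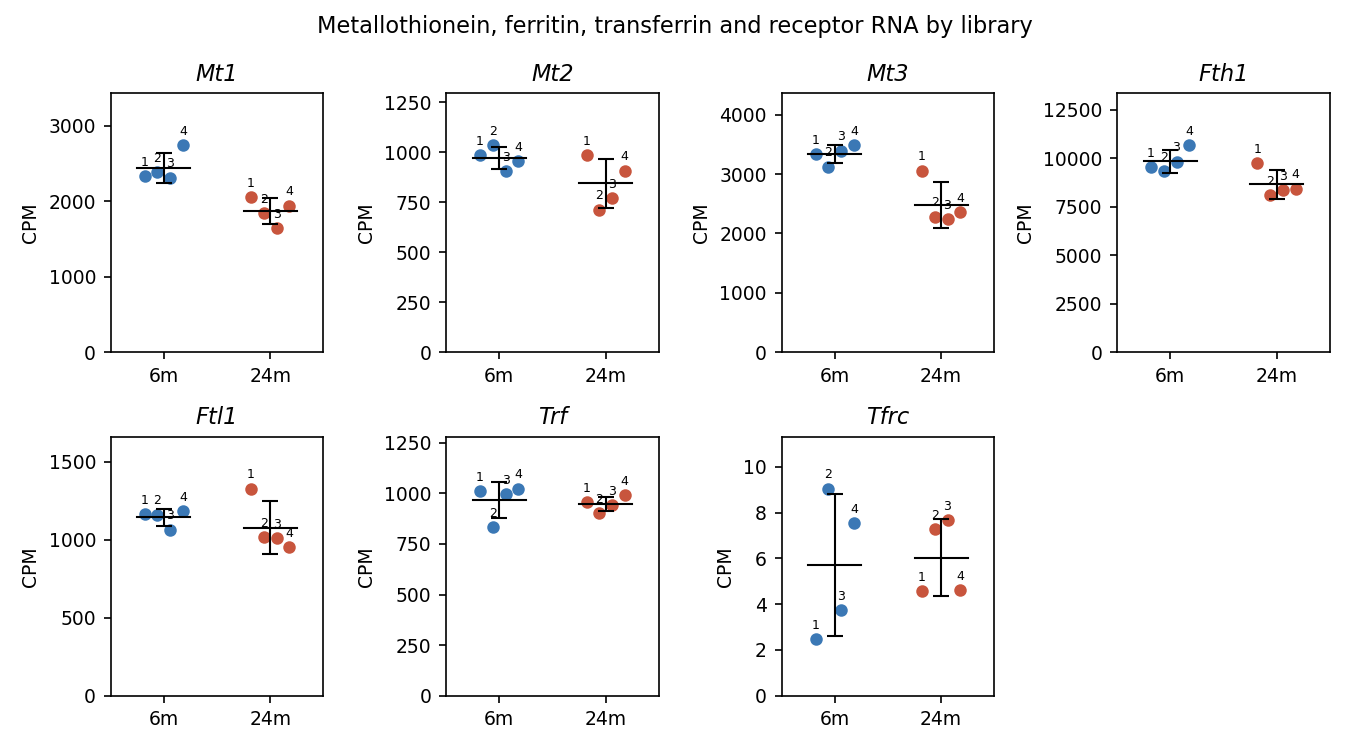
CPM of each of the 7 genes (y axis, from 0) in the 4 libraries of each age (x axis), with points numbered by replicate, and the mean and SD in black. Mt1 and Mt3 are lower in every 24m library than in any 6m library, and Tfrc lies between 2.46 and 9.04 CPM.

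Mt1 was at 2335, 2389, 2312 and 2743 CPM in the 6m libraries and at 2052, 1844, 1646 and 1940 CPM in the 24m libraries. Every aged library lay below every young one. The log2FC was -0.39 ± 0.09 (SE), with a 95% interval from -0.57 to -0.20 and an edgeR adjusted p of 0.0035, or 0.765 of the 6m level. The interval ends just inside the fold threshold, so a fall as large as that threshold lay outside it.

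Mt3, the form typical of the brain, was at 3332, 3121, 3394 and 3485 CPM in the 6m libraries and at 3056, 2278, 2243 and 2355 CPM in the 24m libraries. The groups did not overlap, and replicate 1 of the 24m mice lay well above the other 3, close to the lowest 6m library. The log2FC was -0.43 ± 0.10 (SE), with a 95% interval from -0.63 to -0.23 and an edgeR adjusted p of 0.0028, and it was -0.53 without 24m replicate 1. This was the only one of the 6 intervals to reach past the fold threshold.

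Mt2 was at 984.7, 1034, 904.8 and 953.1 CPM in the 6m libraries and at 983.1, 711.1, 770.4 and 906.6 CPM in the 24m libraries. The groups overlapped through 24m replicates 1 and 4. The log2FC was -0.20 ± 0.10 (SE), with a 95% interval from -0.40 to -0.0024 and an edgeR adjusted p of 0.141. Part of the Mt2 transcript is also annotated, on the opposite strand, as the long noncoding Gm45774, which has no row in the table, and the strand setting of the counting is not given in the sources used here. Mt2 shares 783 exon bases with it. Exons of Fth1 (1462 bases), Ftl1 (355) and Trf (147) likewise overlap opposite-strand genes that have no row.

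Fth1, the heavy chain, was at 9534, 9328, 9829 and 10670 CPM in the 6m libraries and at 9748, 8091, 8352 and 8427 CPM in the 24m libraries. In 3 of the 4 aged mice it lay below all young mice, and 24m replicate 1 lay among the young. The log2FC was -0.19 ± 0.09 (SE), with a 95% interval from -0.38 to 0.0059 and an edgeR adjusted p of 0.159.

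Ftl1, the light chain, was at 1164, 1159, 1063 and 1182 CPM in the 6m libraries and at 1326, 1015, 1010 and 950.4 CPM in the 24m libraries. The highest value of all 8 was that of 24m replicate 1 and the other aged libraries were the 3 lowest. The log2FC was -0.091 ± 0.097 (SE), with a 95% interval from -0.29 to 0.11 and an edgeR adjusted p of 0.547. Ftl1 is uncertain as a gene: its copy Ftl1-ps1, identical over 99.6% of the aligned bases, held 6 to 21 counts more than Ftl1 in every library, so the counts of the 2 rows cannot be told apart, and nearly all reads may stand in both.

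Trf was at 1011, 833.6, 996.9 and 1023 CPM in the 6m libraries and at 957.2, 902.4, 940.6 and 990.2 CPM in the 24m libraries. The aged libraries lay within the range of the young, whose low value came from replicate 2, the library with the fewest counts. The log2FC was -0.030 ± 0.088 (SE), with a 95% interval from -0.21 to 0.15 and an edgeR adjusted p of 0.848. The interval leaves out the fold threshold on both sides.

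Tfrc had 2, 5, 3 and 6 counts in the 6m libraries and 3, 7, 6 and 6 in the 24m libraries, a mean of 4.75, below the filter of the test. This is 5.69 ± 3.10 CPM (SD, n = 4) at 6m and 6.03 ± 1.68 CPM (SD, n = 4) at 24m, and the exact two-sided permutation p for the difference was 0.8. Summed over libraries, 16 counts at 6m and 22 at 24m gave a ratio of 1.19 with an exact 95% interval from 0.595 to 2.42, which covers counting error only. With a filter on the total count over 5, which let it into the edgeR test, its log2FC was 0.15 with an adjusted p of 0.893. These few counts leave the direction of any age difference in Tfrc undetermined.

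**Figure D2:**
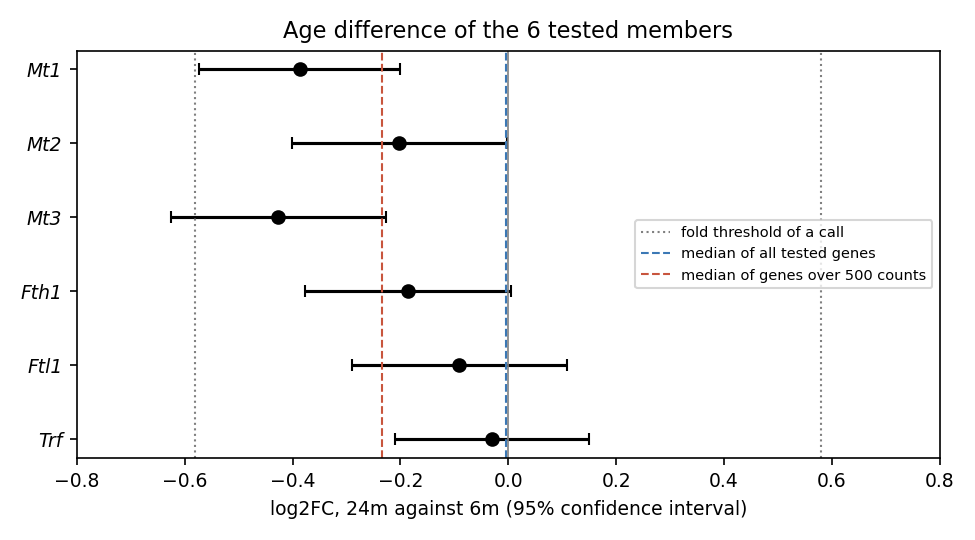
log2FC of the 6 tested genes (x axis, 24m against 6m; points with 95% intervals), with dotted lines at the fold threshold of 0.58 either way and dashed lines at the medians of all tested genes and of those with a mean count over 500. Only the interval of Mt3 crosses the threshold. The intervals of Mt1, Mt2, Mt3, Fth1 and Ftl1 hold the median of the abundant genes and that of Trf does not.

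The direction of 4 of the 6 differences depended on how libraries were scaled. With RLE or upper quartile factors the values stayed near those of TMM. With quantile-normalized counts in DESeq2, the normalization named in the study's methods, log2FC turned above 0 for Mt2 (0.0034), Fth1 (0.11), Ftl1 (0.062) and Trf (0.14). Mt1 (-0.15) and Mt3 (-0.17) stayed below 0 but their DESeq2 adjusted p rose to 0.225 and 0.251. When TMM factors were computed from the genes with a mean count over 500 alone, a scaling chosen after seeing the data, Mt1 was at -0.16 (edgeR adjusted p = 0.125) and Mt3 at -0.20 (edgeR adjusted p = 0.0326), while the other 4 lay above 0, up to 0.20 for Trf. Mt1 and Mt3 were below 0 in all 21 alternatives run, and no alternative called any of the 6 in either direction.

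Without 24m replicate 1, 5 of the 6 passed on adjusted p alone, in place of 2: Mt2 was then at -0.27 (edgeR adjusted p = 0.0091), Fth1 at -0.24 (edgeR adjusted p = 0.0012) and Ftl1 at -0.20 (edgeR adjusted p = 0.0278), beside Mt1 and Mt3. The median log2FC of the abundant genes was -0.27 without that library. By edgeR 1594 of 9463 tested genes were then called, in place of 1359 of 9375. With all 8 libraries 51.2% of the abundant genes passed on adjusted p alone, and their share without that library is not reported here. limma-voom on all 8 libraries added Fth1 to Mt1 and Mt3, with -0.20 and an adjusted p of 0.0193.

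**Figure D3:**
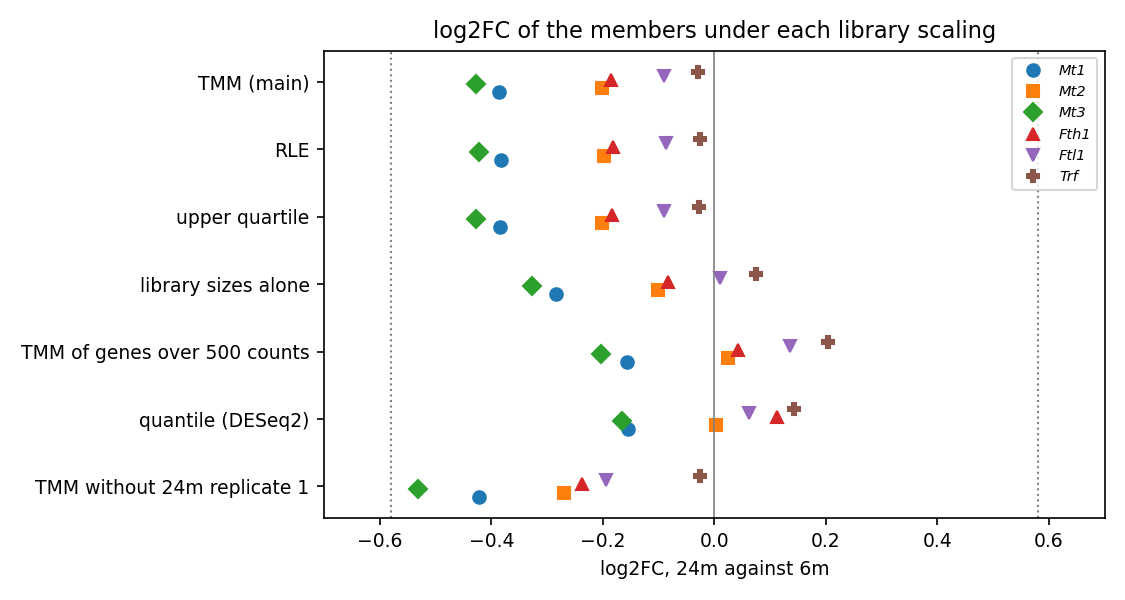
log2FC of the 6 tested genes (x axis, 24m against 6m; 1 symbol per gene) under 6 ways of scaling the libraries and, in the lowest row, without 24m replicate 1; dotted lines mark the fold threshold. Mt1 and Mt3 lie below 0 in every row, while Mt2, Fth1, Ftl1 and Trf lie above 0 with quantile normalization and with factors from abundant genes, and Ftl1 and Trf also with library sizes alone.

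The median log2FC rose with transcript length across all tested genes. It did not rise steadily among the abundant genes, to which all tested members belong. The members' transcripts measure 549 nt for Mt1, 682 for Mt2, 865 for Mt3, 929 for Fth1, 969 for Ftl1, 2571 for Trf and 4895 for Tfrc. Over all tested genes the median log2FC was -0.20 for the 597 with transcripts under 1 kb, -0.097 for the 1804 from 1 kb to under 2 kb, 0.021 for the 2045 from 2 kb to under 3 kb and 0.080 for the 4903 of 3 kb or more. Among genes with a mean count over 500 the same classes had medians of -0.27, -0.22, -0.13 and -0.22. The part of transcript length in the members' values was not tested.

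Per kilobase of transcript, Fth1 was the highest of the 7, with 10600 CPM per kb at 6m and 9320 at 24m, and ranked 6 among the 9349 tested genes with a known length. Next came Mt1 with 4450 and 3410 CPM per kb (rank 19), Mt3 with 3850 and 2870 (rank 27), Mt2 with 1420 and 1240 (rank 95), Ftl1 with 1180 and 1110 (rank 104) and Trf with 376 and 369 (rank 307). Tfrc was at 1.16 CPM per kb at 6m and 1.23 at 24m. This order held in all 8 libraries for every pair of neighbours apart from Mt2 and Ftl1, which stood in it in 7 of 8. A level of Ftl1 that shares its reads with Ftl1-ps1 is uncertain in this order. The order and ranks also rest on dividing by length, which is not needed where 1 long read stands for 1 molecule. In CPM alone Mt3 (3333 at 6m, 2483 at 24m) lay above Mt1 (2445 and 1870). Likewise Ftl1 (1142 and 1075) lay above Mt2 (969.2 and 842.8), and Fth1 was still the highest.

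Ratios between members within a library do not depend on scaling, and 4 were compared between the ages by exact two-sided permutation tests, whose smallest possible p with 4 mice against 4 is 0.029. The ratio of Fth1 to Ftl1 read counts was 8.19, 8.05, 9.25 and 9.03 at 6m and 7.35, 7.97, 8.27 and 8.87 at 24m. The ages overlapped, with a log2 difference of -0.089 (exact permutation p = 0.257, adjusted over the 4 ratios 0.343).

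The ratio of Mt1 to Mt2 was 2.37, 2.31, 2.56 and 2.88 at 6m and 2.09, 2.59, 2.14 and 2.14 at 24m. All aged mice but replicate 2 lay below all young mice, and the log2 difference was -0.18 (exact permutation p = 0.171, adjusted 0.343). The ratio of Mt3 to the sum of Mt1 and Mt2 was 0.978 ± 0.064 (SD, n = 4) at 6m and 0.914 ± 0.075 (SD, n = 4) at 24m, a log2 difference of -0.10 (exact permutation p = 0.229, adjusted 0.343). The ratio of Trf to Tfrc ran from 92.2 to 410.5 at 6m and from 122.5 to 215.2 at 24m, a spread set by the few counts of Tfrc (exact permutation p = 0.686, adjusted 0.686). No shift between paired forms was thus detected beyond the spread between mice.

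**Figure D4:**
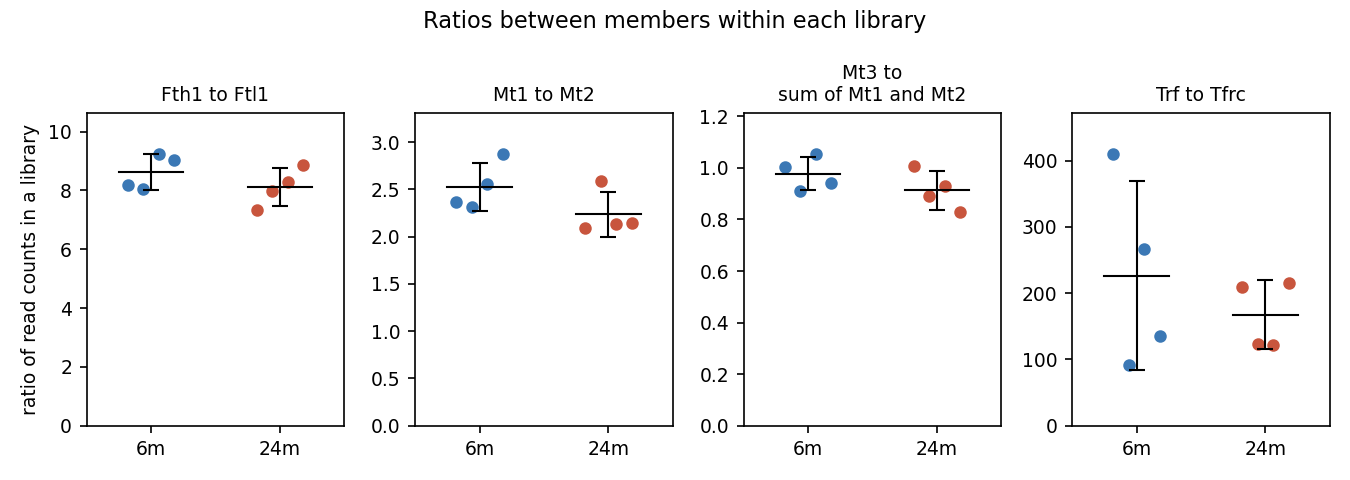
Ratio of read counts in each library (y axis, from 0) for 4 pairs of members at 6m and 24m (x axis), with points for libraries and the mean and SD in black. The ages overlap in all 4, and the ratio of Fth1 to Ftl1 lies between 7.35 and 9.25.

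The members differed in their spread within an age. At 6m the coefficient of variation was 4.64% for Mt3, 4.69% for Ftl1, 5.61% for Mt2, 6.00% for Fth1, 8.23% for Mt1, 9.21% for Trf and 54.5% for Tfrc. At 24m it was 15.5% for Mt3, 15.8% for Ftl1 and 14.7% for Mt2, with 24m replicate 1 the highest library in each, but 3.85% for Trf.

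Profiles over the 8 libraries were compared as log2 CPM minus the gene's own mean, over 2714 other tested genes with a mean count over 50, by the root mean square difference (RMS). The profiles most like that of Mt1 were those of Atp13a2 (RMS 0.047), Micos10 (0.050) and Arl3 (0.052), and most like Mt2 were Psmb1 (0.038), Rpl9 (0.061) and Ccdc136 (0.067). Mt3 was followed by Atp5f1e (0.044), Rps27rt (0.047) and Rpsa (0.051), and Fth1 by Pgk1 (0.037), Tkt (0.041) and Rundc3a (0.042). Ftl1 had its copy Ftl1-ps1 nearest (0.0056), then Prdx5 (0.029) and Polr2f (0.046), and Trf had Usf2 (0.043), Dynlrb1 (0.062) and Psmd3 (0.065). Among the members, the nearest pairs were Fth1 with Ftl1 (0.10) and Mt1 with Mt3 (0.11), and the farthest was Mt3 with Trf (0.25). No correlation was computed, since the ages separate the libraries.

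The other genes of metal and iron handling were taken from 8 lists of 110 genes, of which 71 were tested. By edgeR 3 of the 71 were called higher and 1 lower (5.63%, beside 14.5% of all tested genes), and the median log2FC of the 71 was -0.011. On adjusted p alone 8 of the 71 passed, beside 21.7% of all tested genes. Called higher were Slc39a11, a zinc importer of the Zip family, Pgrmc1, a haem-binding membrane protein, and Isca1, of mitochondrial iron-sulfur cluster assembly. Called lower was Alad, the second enzyme of haem synthesis.

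Slc39a11 had 3, 2, 3 and 2 counts at 6m and 10, 11, 14 and 13 at 24m, so the groups stood apart on few reads, and the ratio of pooled CPM was 4.14 (exact 95% interval 2.07 to 9.18, counting error only; edgeR adjusted p = 0.0024). Pgrmc1 was at 64.1 ± 20.2 CPM (SD, n = 4) at 6m and 124.9 ± 32.2 (SD, n = 4) at 24m, with a log2FC of 1.01 ± 0.20 (SE; edgeR adjusted p = 0.00073). Isca1 was at 53.7 ± 6.09 CPM (SD, n = 4) at 6m and 92.2 ± 16.9 (SD, n = 4) at 24m, with a log2FC of 0.80 ± 0.16 (SE; edgeR adjusted p = 0.0012). Alad was at 86.6 ± 9.20 CPM (SD, n = 4) at 6m and 58.8 ± 7.06 (SD, n = 4) at 24m, and its log2FC of -0.58 ± 0.15 (SE; edgeR adjusted p = 0.0084) lay at the fold threshold. With RLE or upper quartile factors, library sizes alone, filterByExpr, the replicate block or DESeq2, no gene of these lists was called lower. The count called higher was 2 with filterByExpr and 4 with library sizes alone. It was also 4 with a filter on the total count over 5 or without 24m replicate 1.

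Among zinc genes, 1 of 8 tested Slc39 importers was called, and none of 4 tested Slc30 exporters by edgeR, DESeq2 or limma-voom, with 0 at an unadjusted p under 0.05. Slc30a3, which loads zinc into synaptic vesicles and had the most counts of them, was at 76.4 ± 13.7 CPM (SD, n = 4) at 6m and 83.3 ± 14.3 (SD, n = 4) at 24m. Mtf1, the zinc-sensing factor of the metallothionein genes, had a mean count of 6.5, with 7.87 ± 1.97 CPM (SD, n = 4) at 6m and 7.20 ± 4.48 (SD, n = 4) at 24m, an interval of its log2FC from -0.94 to 0.92 and an edgeR adjusted p of 0.991. Mt4, the metallothionein of squamous epithelium, had 1 count in all libraries.

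Of 8 tested copper genes none was called by edgeR, DESeq2 or limma-voom, with 3 at an unadjusted p under 0.05. Cox17, the copper chaperone of cytochrome oxidase and the most counted, was at -0.32 ± 0.11 (log2FC, SE; edgeR adjusted p = 0.0324), and Atox1, the cytosolic copper chaperone, named here after its value was seen, was at -0.39 ± 0.11 (log2FC, SE; edgeR adjusted p = 0.0153). Both lay below the 6m range in all 4 aged libraries.

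Of 24 genes of iron uptake and export only 7 were tested, and none was called by edgeR, DESeq2 or limma-voom, with 1 at an unadjusted p under 0.05. Snx3, a sorting protein that recycles the transferrin receptor and the most counted of them, was at 198.8 ± 14.8 CPM (SD, n = 4) at 6m and 215.6 ± 27.9 (SD, n = 4) at 24m (edgeR adjusted p = 0.448). The iron exporter ferroportin, Slc40a1, had 9 counts in all libraries, the ferroxidase Cp 26 and the importer Slc11a2 89, and 3 of the genes, Steap4, Hephl1 and Hamp, had none.

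Of 9 tested genes of iron sensing, ferritin turnover and iron chaperones none was called by edgeR, DESeq2 or limma-voom, with 2 at an unadjusted p under 0.05. The most counted was Pcbp2, an iron chaperone that delivers iron to ferritin, from 523.6 to 572.5 CPM at 6m and from 458.5 to 518.5 at 24m (log2FC -0.19 ± 0.09, SE; edgeR adjusted p = 0.121). In the haem list 2 of 15 tested genes were called and in the iron-sulfur list 1 of 19, and of those not called, Slc48a1, a haem transporter (log2FC 0.50, edgeR adjusted p = 0.0041), and Glrx5 (log2FC -0.33, edgeR adjusted p = 0.0344), named after their values were seen, passed on adjusted p alone.

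Glucocorticoid-responsive genes were listed because Mt1 and Mt2 respond to these hormones. Of 9 tested none was called by edgeR, DESeq2 or limma-voom, with 3 at an unadjusted p under 0.05 and a median log2FC of 0.47. Sgk1, the most counted, was at 92.4 ± 18.1 CPM (SD, n = 4) at 6m and 100.8 ± 25.9 (SD, n = 4) at 24m, and Tsc22d3, named after its value was seen, was at a log2FC of 0.49 (edgeR adjusted p = 0.0326).

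**Figure D5:**
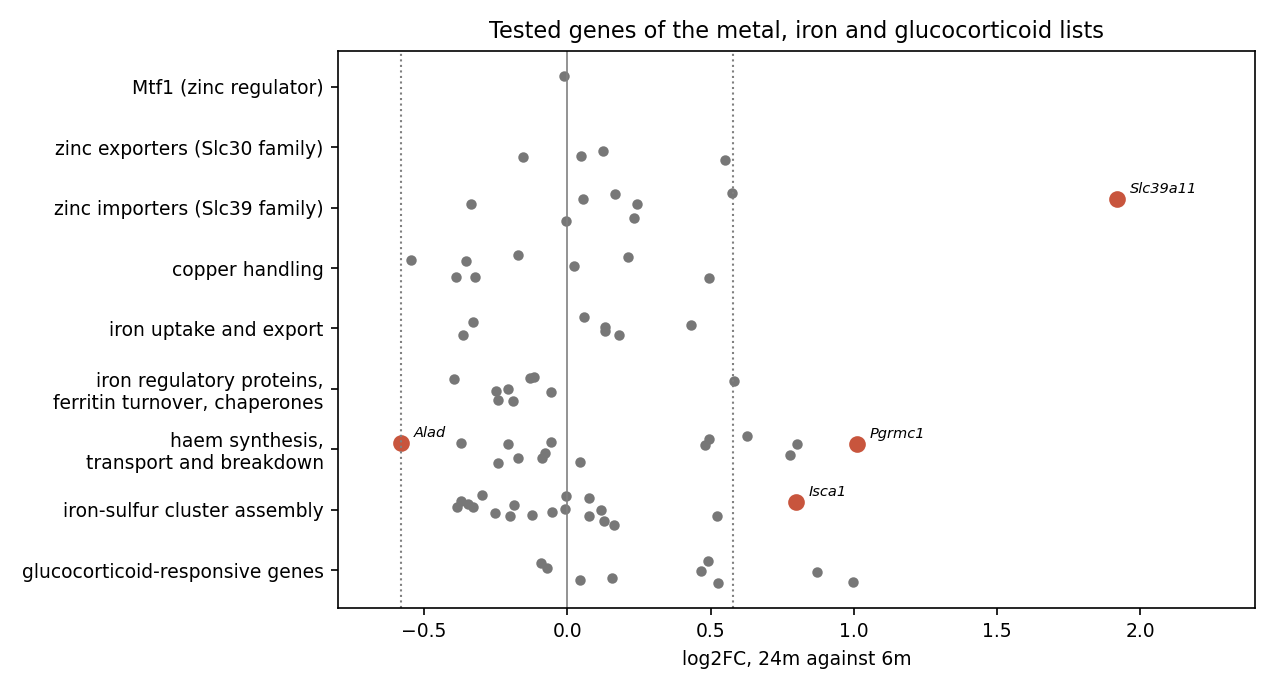
log2FC of each tested gene (x axis, 24m against 6m) in the zinc, copper, iron, haem, iron-sulfur and glucocorticoid lists (y axis), with called genes large, red and named and dotted lines at the fold threshold. Slc39a11, Pgrmc1 and Isca1 lie to the right and Alad at the left threshold, where other scalings did not call it.

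Markers of brain cell types were compared in the same libraries, and in tissue RNA fewer cells of a type and less RNA per cell cannot be told apart. Of 8 tested astrocyte markers 3 were called higher, Gfap (log2FC 1.94), Slc1a3 (1.65) and Gja1 (1.42), and 1 lower, Slc1a2 (-0.60), and the summed level of all 10 ran from 4484 to 4997 CPM at 6m and from 4185 to 5207 at 24m. Most of that sum was Aldoc (means of 2341 CPM at 6m and 2148 at 24m) and Clu (1912 and 1719), named here for their share. Oligodendrocyte markers summed to between 1300 and 1409 CPM at 6m and between 1616 and 1836 at 24m. Microglial markers summed to between 684.4 and 758.5 CPM at 6m and between 859.8 and 1091 at 24m, with 1 of 7 tested called, Tmem119 (log2FC 1.03). Neuronal markers summed to between 3012 and 3217 CPM at 6m and between 3704 and 3984 at 24m, with 3 of 9 called higher, Slc17a7 (0.58), Snap25 (0.77) and Gad1 (0.75). Of the 9, 8 had a log2FC above 0. Tubb3, named after its value was seen, was at -0.30 (edgeR adjusted p = 0.0353). The calls of markers here are those of edgeR. On raw counts DESeq2 called 3 astrocyte, 0 microglial and 2 neuronal markers. On quantile-normalized counts it called 3, 0 and 1.

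Endothelial markers summed to between 1089 and 1191 CPM at 6m and between 801.1 and 938.9 at 24m, with none of 4 tested called by edgeR or DESeq2, 1 by limma-voom and 2 at an unadjusted p under 0.05. Most of that sum was Bsg, named here for its share, with means of 998.3 CPM at 6m and 741.6 at 24m. Of the 4 tested, 1 had a log2FC above 0, Itm2a (0.063). Choroid plexus markers overlapped, from 3094 to 4612 CPM at 6m and from 2394 to 4618 at 24m, with none of 4 tested called by edgeR, DESeq2 or limma-voom and 2 at an unadjusted p under 0.05. Their sum was mostly Ttr, also named for its share, with means of 3436 CPM at 6m and 3201 at 24m. Blood markers ran from 6090 to 10030 CPM at 6m and from 3350 to 6283 at 24m, and all 5 were called lower by edgeR, among them Hbb-bs (log2FC -0.87), Hbb-bt (-0.90), Hba-a1 (-0.75) and Hba-a2 (-0.74), of which the last 2 are near-identical genes that may share reads. DESeq2 called 4 of the 5 on raw counts and 2 on quantile-normalized counts. In 24m replicate 1 blood, choroid plexus, astrocyte, microglial and endothelial markers were each the highest of the aged libraries, as were Mt1, Mt2, Mt3, Fth1 and Ftl1. No marker of any list was at 0 in all libraries, and the part of these cell types in the members' values was not tested.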

How the data were processed

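Per the study's methods, the authors sequenced the RNA with ONT's direct RNA protocol, used minimap2 for mapping to GRCm39 (version 2.24 in the submitters' processing notes) and counted them per gene with featureCounts; strand, overlap and multi-mapping settings are not given in the sources used here. The labels name a poly(A) cDNA library kit instead, which would add reverse transcription and amplification before sequencing; the methods were followed. The deposited values are raw counts. Of 22430 genes, 22281 matched GENCODE vM39, from which gene models, element sites and copies were taken. Lengths and elements of the members come from a transcript of the consensus coding set (CCDS). Those of all other genes come from the Ensembl canonical transcript, so the ranks per kilobase rest on 2 ways of choosing a transcript.

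The analysis ran in R 4.3.3. The main test was edgeR's (4.0.16) quasi-likelihood test on 9375 genes whose counts averaged more than 5, with TMM factors, age as the only term and p-values adjusted over all of them. DESeq2 (1.42.0; on quantile-normalized counts without the authors' row-wise median step) and limma-voom (limma 3.58.1) were alternatives. Intervals come from the log2FC, the F statistic and its degrees of freedom. Log2 CPM used a prior count of 2. On simulated counts of 9169 genes for this comparison, edgeR recovered 55.2% of genes changed 2-fold (1 on the log2 scale) and 98.9% of those changed by 2 on the log2 scale.

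Named are the 7 members, called genes of each pathway list or, with none called, its most counted tested gene, up to 4 called genes of each marker list by mean count, and the 3 nearest profiles of each member; a marker named by this rule is not reported here. Members and lists were chosen with earlier results of these data known. Alternatives were other tests, scalings and filters, mitochondrially encoded genes left out, copies added, a replicate block and leaving out each library; factors from abundant genes, and for the wider lists the replicate block and leaving out 24m replicate 1, were added after seeing the data. Same-numbered libraries of the ages did not deviate together (correlations of -0.16 to 0.065), so numbers were not taken to pair mice.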

Additional observations from a re-analysis of the deposited data

Results flagged for a closer look

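Of 38 sets of 4 libraries examined (each age, for members, ratios, marker sums and library totals), 4 held a library far from the other 3 by Dixon's criterion, where chance gives about 1 in 20, or 1.9. Mt3 in 24m replicate 1 was at 3056 CPM, above the other aged libraries. Trf in 6m replicate 2 was at 833.6 CPM, below the other young libraries. The ratio of Mt1 to Mt2 in 24m replicate 2 was 2.594, above the other aged libraries. The counts on genes of 6m replicate 2 added up to 573152, the fewest of its age.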

How the results depend on the processing

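No member was called under any of 21 alternatives, and Mt1 (-0.42 to -0.15) and Mt3 (-0.53 to -0.17) were below 0 in all of them. With DESeq2 on quantile-normalized counts the log2FC was 0.0034 for Mt2, 0.11 for Fth1, 0.062 for Ftl1 and 0.14 for Trf; with factors from abundant genes, added after seeing the data, it was 0.025, 0.043, 0.14 and 0.20; with library sizes alone, which moved the median of all genes to 0.10, it was 0.0097 for Ftl1 and 0.074 for Trf. Leaving out 1 library in turn, Trf ran from -0.083 to 0.0065 (without 6m replicate 4), the log2 ratio of mean CPM of Tfrc (0.084) from -0.12 (without 6m replicate 1; also below 0 without 6m replicate 3, 24m replicate 2 or 24m replicate 3) to 0.40, and the log2 difference of the ratio of Trf to Tfrc (-0.25) from -0.61 to 0.11 (without 6m replicate 1). On adjusted p alone 2 members passed. The 1 gene called lower in the wider lists became 0 with RLE or upper quartile factors, library sizes alone, filterByExpr, DESeq2 and the replicate block. The 3 called higher became 2 with filterByExpr and 4 with library sizes alone. They also became 4 with a total count over 5 or without 24m replicate 1. The replicate block changed no call of a member (Mt1 -0.39, Mt3 -0.44) and 1308 genes were then called in place of 1359; DESeq2 called 834. Depth limits Tfrc most: 3 counts in the shallowest library are 5.42 CPM.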
